A study of Homo sapiens with 16 samples.

Results

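The genes that encode the constitutive proteasome, the protease complex that every cell uses to degrade ubiquitin-tagged proteins, were read in 16 libraries of HEK293 cells, an established human line of embryonic kidney origin. Membership was set by gene symbol alone: PSMA1 to PSMA7, PSMB1 to PSMB7, PSMC1 to PSMC6, PSMD1 to PSMD14, PSMF1, PSMG1 to PSMG4, PSME3, PSME4 and POMP, which took 42 of 20802 gene targets, each with 1 row per library. Of these, 41 passed the filter on low counts and were tested. The remaining one, PSMD5, a chaperone of cap assembly, had 0 reads in all 16 libraries, which allows a level of up to 0.021 CPM over their summed reads and covers counting error only.

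The libraries fall into 8 groups of 2, from HEK293 cells whose genotype is given as optimized receptors (OPT) or wild-type receptors (WT), in a series that asks how the geometry of paired JAK kinases affects gene expression under type I and type III interferons. Within each genotype, cells received IFNw (interferon omega, a type I interferon), H11 (labelled as a high-affinity form of the type III interferon IFNL3) or IFNL3 itself, or were left untreated. Ligand was given at 100 nM for 15 min and the time point is labelled 24 hr; the relation of both times is unstated, as is whether the receptor change is in 1 clone or a pool. The labels call replicates biological but do not mention separate cultures, so p-values measure the spread between these libraries, and no mock-treated group is among them, so a difference from untreated cells may include one of handling.

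Library totals ran from 5331203 reads in replicate 2 of untreated OPT cells to 9822088 reads in replicate 2 of OPT cells with IFNw. That smallest library stood apart for some members: PSMB3 was at 149.9 CPM in it and at 407 CPM in its replicate. CPM here are read counts scaled to library size with TMM factors. The interferon targets ISG15, IFIT1 and IFI6 were called higher in all 6 ligand groups. ISG15, a ubiquitin-like protein, was at 7266 and 7770.0 CPM in OPT cells with IFNw and at 521 and 595 CPM in WT cells with IFNL3, against 17.5 and 13.0 CPM in untreated OPT and 18.1 CPM on average in untreated WT cells. Of the HEK293 markers, VIM, KRT8, KRT18 and PAX2 were detected in all 16 libraries, VIM between 271 and 542 CPM, whereas EYA1, NEFL and NEFM stayed at or near 0. The 5 blood and 5 hepatocyte markers measured were below 1 CPM in all libraries, as were 4 of 5 fibroblast markers. The fifth, COL1A1, was lower on the log2 scale with IFNw (-0.80 in OPT and -1.15 in WT cells) and with H11 in OPT cells (-0.87), and both OPT calls were lost with the length offset described below. Of the 5 HEK293 markers tested, 1 rose and 1 fell with IFNw, 2 rose and 1 fell with H11 and 0 changed with IFNL3 in OPT cells, and 2 rose and 1 fell with IFNw, 1 rose and 2 fell with H11 and 1 rose and 2 fell with IFNL3 in WT cells. The part of such shifts in the results below was not tested.

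The proteasome is a barrel-shaped core with a cap on one or both ends. In the core, outer alpha rings (PSMA genes) gate the entrance and inner beta rings (PSMB genes) hold the protease sites of PSMB5, PSMB6 and PSMB7. The cap's base carries a ring of ATPases (PSMC genes) that unfold substrates and thread them into the core, its lid holds the deubiquitinase PSMD14, and dedicated chaperones (PSMG1 to PSMG4 and POMP for the core, PSMD5, PSMD9 and PSMD10 for the cap) build the particle. Interferons are known for inducing PSMB8, PSMB9 and PSMB10, which replace the 3 catalytic subunits to form the immunoproteasome, and PSME1 and PSME2, which form an alternative cap. Those 5 genes are not members and are used below as a yardstick. The transcription factor NFE2L1 is known for raising constitutive proteasome genes when proteasome activity is low.

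RefSeq promoters (GRCh38.p14, 250 bases before to 50 after the start) were at hand for 36 of the 42 members and all 5 interferon-induced genes. The motif GAAANNGAAA, read on both strands as a simple form of the interferon-stimulated response element, was in 3 of the 36 member promoters (8.3%), in 4 of the 5 induced genes and in 4.38% of 27305 genes. The 3 members were PSMG4, which pairs with PSMG3 to guide alpha ring assembly, with GAAAGCGAAA, PSMB4, a structural beta subunit, with GAAAAAGAAA, and the alpha subunit PSMA4, with GAAAATGAAA. The 10 letters in PSMG4 lie 33 bases before the start and recur in PSMB10 and PSME2, and, as the reverse complement TTTCGCTTTC, in PSMB8 and PSME1. They were found in the promoters of 0.12% of the 27305 genes, a search made after the match was seen. PSMG4 is shown first because it is the member with the largest difference between genotypes below, and 3 induced genes follow for comparison, with the match in capitals. The windows are chr6:3258697-3258996 on the plus strand for PSMG4 and, on the minus strand, chr16:67936801-67937100 for PSMB10, chr14:24146561-24146860 for PSME2 and chr6:32843998-32844297 for PSMB8, each printed 5′ to 3′ along the gene.
PSMG4: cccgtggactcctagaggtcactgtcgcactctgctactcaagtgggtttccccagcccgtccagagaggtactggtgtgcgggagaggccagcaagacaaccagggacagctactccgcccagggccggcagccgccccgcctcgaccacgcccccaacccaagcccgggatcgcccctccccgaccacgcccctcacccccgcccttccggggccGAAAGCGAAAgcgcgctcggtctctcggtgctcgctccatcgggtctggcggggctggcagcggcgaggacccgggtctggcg
PSMB10: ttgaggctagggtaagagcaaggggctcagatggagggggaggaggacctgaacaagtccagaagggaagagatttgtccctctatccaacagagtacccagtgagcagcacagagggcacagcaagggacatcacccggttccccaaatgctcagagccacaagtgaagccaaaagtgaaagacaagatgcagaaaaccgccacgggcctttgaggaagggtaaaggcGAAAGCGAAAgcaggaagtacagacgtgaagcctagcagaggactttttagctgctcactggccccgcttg
PSME2: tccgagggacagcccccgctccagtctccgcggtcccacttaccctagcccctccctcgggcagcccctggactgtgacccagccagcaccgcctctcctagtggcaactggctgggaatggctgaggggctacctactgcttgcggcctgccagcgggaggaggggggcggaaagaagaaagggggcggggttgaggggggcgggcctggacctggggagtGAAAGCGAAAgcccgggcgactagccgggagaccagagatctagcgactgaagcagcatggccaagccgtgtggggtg
PSMB8: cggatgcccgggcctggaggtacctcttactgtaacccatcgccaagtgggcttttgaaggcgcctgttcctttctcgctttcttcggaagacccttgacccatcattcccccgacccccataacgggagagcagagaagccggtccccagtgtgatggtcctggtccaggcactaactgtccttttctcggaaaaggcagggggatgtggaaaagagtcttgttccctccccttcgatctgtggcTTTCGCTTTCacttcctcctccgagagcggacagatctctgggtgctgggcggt
A match is a description of letters and not a site of binding. The antioxidant response core TGACNNNGC, a motif of NFE2L1 and NFE2L2, was in 12 of 36 member promoters (33.3%) against 16.06% of all genes, and CCAAT in 18 of 36 (50%) against 39.72%, on either strand. PSMA2, PSMA3, PSMA6, PSMB3 and PSMC6 had no GAAANNGAAA in these windows.

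**Figure D1:**
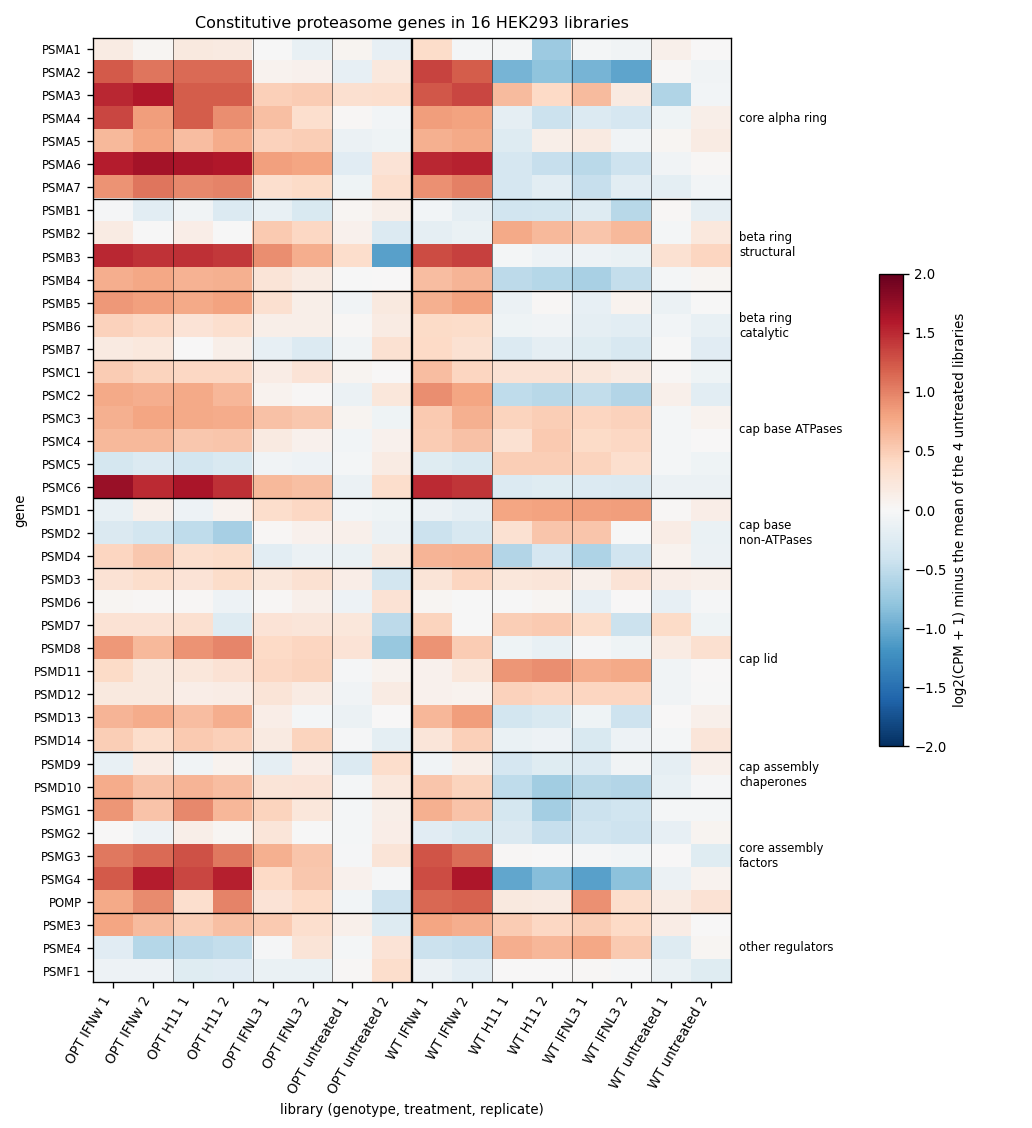
Each row is 1 of the 41 tested members, grouped by role, and each column 1 library. Colour gives log2(CPM + 1) minus the mean of the 4 untreated libraries, from blue (lower) to red (higher). PSMA6, PSMC6, PSMG3 and PSMG4 are red with IFNw in OPT and WT cells and with H11 in OPT cells, and PSMB3 is blue in 1 untreated OPT library.

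IFNw was given to ask how a type I interferon acts in each genotype, and many constitutive proteasome genes rose in both. In OPT cells 26 members rose and 2 fell, against backgrounds of 17.5% and 15.9% of all tested genes, and in WT cells 24 rose and 0 fell, against 16.6% and 14.8% (edgeR quasi-likelihood test, Benjamini-Hochberg adjusted p of 0.05 or less over 12704 genes). The median log2 fold change of the members was 0.58 in OPT and 0.57 in WT cells, where the medians of all genes were -0.04 and -0.05. The OPT and WT tests share no library, and 23 members rose in both, which is 23 of the 26 in OPT and 23 of the 24 in WT cells. The same overlap over all genes was not counted. With IFNw 0 of all 12704 genes were called between OPT and WT cells, so the overlap is not read as particular to the members. Since bulk RNA was read, a larger share of responding cells and a larger change per cell cannot be told apart.

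Of the alpha ring, 6 of 7 genes rose in each genotype, with a median log2 fold change of 1.12 in OPT and 1.09 in WT cells. With the length offset described below the medians were 0.75 and 0.67, and 6 of 7 rose in OPT and 5 of 7 in WT cells. PSMA6 was at 1613 and 1727 CPM in OPT cells with IFNw, against 466 and 659.9 CPM untreated, and at 1547 and 1575 CPM in WT cells with IFNw, against 515 and 552 CPM untreated. The treated libraries did not overlap the untreated ones, and the log2 fold changes were 1.57 ± 0.14 (± SE) in OPT (adjusted p 1.8e-07) and 1.55 ± 0.14 in WT cells (adjusted p 2.1e-07). PSMA2 was at 578 and 516 CPM in OPT cells with IFNw, against 221 and 284 CPM untreated, and at 631 and 571 CPM in WT cells with IFNw, against 249 and 236 CPM untreated. The groups did not overlap, and the rise was 2.17-fold in OPT and 2.48-fold in WT cells. PSMA7 rose 1.8-fold in OPT and 2.12-fold in WT cells, PSMA4 2.17-fold and 1.75-fold, and PSMA5 1.78-fold and 1.55-fold. PSMA3 had the largest change in WT cells, 1.74 ± 0.23, on a low level of 19.1 and 20.2 CPM with IFNw, against 4.56 and 7.18 CPM untreated. The exception was PSMA1, at 0.16 in OPT and 0.12 in WT cells with adjusted p of 0.54 and 0.64.

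In the beta ring, the chymotrypsin-like subunit PSMB5 rose 1.71-fold in OPT cells, to 349 and 338 CPM against 183 and 219 CPM untreated, and 1.77-fold in WT cells, to 316 and 335 CPM against 177 and 190.5 CPM. No IFNw library overlapped an untreated one. The caspase-like subunit PSMB6 was called higher by 0.34 ± 0.10 in OPT and 0.47 ± 0.10 in WT cells, where the length offset described below gave -0.11 and 0.03 and no call. The trypsin-like subunit PSMB7 was called in WT cells only (0.47 ± 0.13, and 0.06 ± 0.13 in OPT cells, a difference in response of -0.41 ± 0.18 with adjusted p 0.87). Among structural subunits, PSMB4 rose in both (0.75 ± 0.10 in OPT and 0.65 ± 0.10 in WT cells) and so did PSMB3 (1.67 ± 0.27 and 0.97 ± 0.26). The OPT value of PSMB3 rests in part on the low untreated library: it lay between 1.13 and 2.57 as 1 library at a time was left out. PSMB1 and PSMB2 were not called in either genotype.

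In the cap, 5 of the 6 base ATPases rose in each genotype, and fewer lid genes did: 4 of 8 in OPT and 1 of 8 in WT cells. PSMC6, the base ATPase that moved most, was at 747 and 636 CPM in OPT cells with IFNw, against 209 and 289 CPM untreated, and at 639 and 609.6 CPM in WT cells with IFNw, against 207 and 207 CPM untreated. All 4 treated libraries were above all 4 untreated ones, at 2.78-fold in OPT and 3.01-fold in WT cells (adjusted p 4.4e-07 and 1.9e-07). PSMC1, PSMC2, PSMC3 and PSMC4 rose by 0.45, 0.69, 0.77 and 0.64 on the log2 scale in OPT cells. PSMC5, the remaining ATPase, was called lower in OPT cells (-0.39 ± 0.12, adjusted p 0.016) and not in WT cells (-0.21 ± 0.12, adjusted p 0.17). In the lid, PSMD13, a lid subunit, rose in both (0.78 ± 0.14 in OPT and 0.70 ± 0.13 in WT cells), while PSMD3, PSMD8 and PSMD14 were called in OPT cells alone. The difference from the WT response was called for none of these 3. The large base scaffolds PSMD1 and PSMD2 were not called in either, and the ubiquitin receptor PSMD4 rose in both (0.46 ± 0.14 and 0.72 ± 0.14).

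Of the core assembly factors, 4 of 5 rose in each genotype. PSMG4 was at 209 and 265 CPM in OPT cells with IFNw, against 93.8 and 87.0 CPM untreated, and at 222 and 274 CPM in WT cells with IFNw, against 81.5 and 93.3 CPM untreated. These are rises of 2.62-fold in OPT and 2.84-fold in WT cells, with no overlap between treated and untreated libraries. Its partner PSMG3 rose 1.98-fold in OPT and 2.48-fold in WT cells, to 179 and 162 CPM in the WT cells. Of the other pair of alpha ring chaperones, PSMG1 rose (0.70 ± 0.14 in OPT and 0.68 ± 0.14 in WT cells) and PSMG2 was not called (-0.10 ± 0.13 and -0.22 ± 0.13). POMP, which matures the beta ring, rose by 1.16 and 1.00 on few reads, 268 in WT cells with IFNw against 174 untreated, summed over both libraries. Of the cap chaperones tested, PSMD10 (gankyrin) rose in both (0.58 ± 0.12 and 0.59 ± 0.12) and PSMD9 in neither. Among regulators, the nuclear activator PSME3 rose in both (0.78 ± 0.13 and 0.68 ± 0.13), the activator PSME4 was called lower in OPT cells (-0.51 ± 0.17) and not in WT cells (-0.35 ± 0.17), and PSMF1, known as an inhibitor of the core in vitro, was called in neither.

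Which of these calls last was checked by leaving out 1 library at a time and by a length offset, a correction that takes out of each library a smooth trend of counts with transcript length. Of the 26 rises in OPT cells, 23 were kept in every leave-one-out fit, PSMB6, PSMD3 and PSMD4 being lost, and 23 with the offset, which lost PSMB6, PSMD4 and PSMD10. Of the 24 in WT cells, 22 were kept in the leave-one-out fits, PSMB3 being lost without replicate 1 and PSMB7 without replicate 2 of untreated WT cells (log2 fold changes over these fits between 0.91 and 1.05 for PSMB3 and between 0.37 and 0.59 for PSMB7), and 18 with the offset, which lost PSMA4, PSMB3, PSMB4, PSMB6, PSMB7 and PSMD10. With the offset 24 members rose in OPT cells and 19 in WT cells, against 15.1% and 13.2% of all genes. PSMB1, PSMC5 and PSMG2 fell with it, the same 3 in each genotype, against 12.3% and 11.3%. The OPT falls of PSMC5 and PSME4 were each lost when replicate 2 of untreated OPT cells was left out, which left 0. Their values lay between -0.48 and -0.28 for PSMC5 and between -0.67 and -0.31 for PSME4 over the leave-one-out fits.

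**Figure D2:**
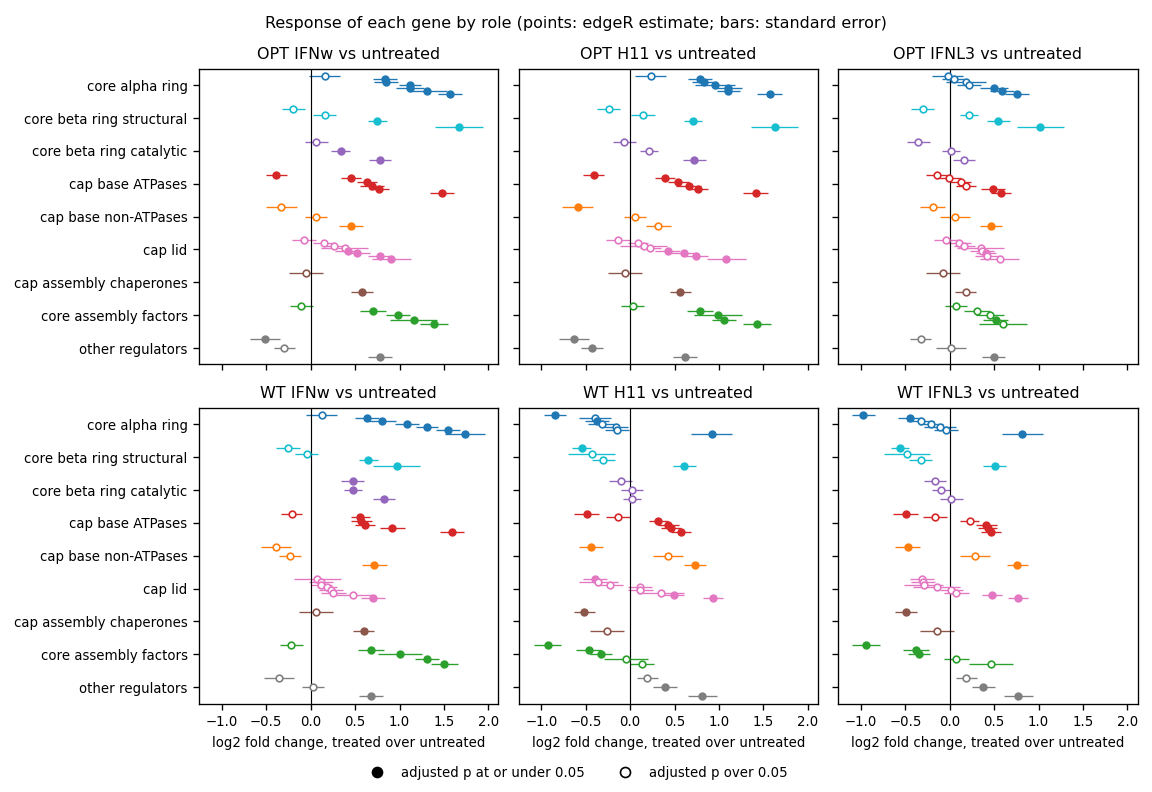
Log2 fold change of each tested member against untreated cells of its genotype (points, edgeR estimates; bars, SE), by role, for OPT (upper) and WT cells (lower) with IFNw, H11 and IFNL3. Filled points have an adjusted p of 0.05 or less. Filled points sit mostly right of 0 with IFNw in either genotype and H11 in OPT cells, and on both sides of 0 with H11 and IFNL3 in WT cells.

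With H11 in OPT cells 24 members rose and 4 fell, against 17.2% and 15.2% of all genes, with a median of 0.56. This comparison shares its untreated libraries with IFNw in OPT cells, so its values are given beside those. PSMA6 was at 1692 and 1647 CPM with H11 (1.57 ± 0.14, adjusted p 1.9e-07), PSMC6 at 700.4 and 622 CPM (1.41 ± 0.14) and PSMG4 at 225 and 262 CPM (1.43 ± 0.15). All were above both untreated OPT libraries. PSMB3 had the largest estimate, 1.63 ± 0.27, between 1.08 and 2.52 over the leave-one-out fits, and PSMA2 rose 2.15-fold. By role, 9 of 14 core genes, 9 of 17 cap genes and 5 of 7 tested assembly genes rose. The 4 that fell were PSMC5, PSMD2, PSME4 and PSMF1, between -0.63 and -0.41. Each of the 4 falls was lost when some single library was left out, and without replicate 2 of untreated OPT cells only PSMD2 remained called. Of the 24 rises, 22 were kept in every leave-one-out fit, and 22 with the length offset, which lost PSMA3 and PSMD10. With the offset 23 rose and 5 fell, against 14.8% and 12.5%.

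IFNL3 in OPT cells gave a smaller set: 11 members rose and 0 fell, against 7.26% and 6.05% of all genes, and the median was 0.19. PSMA6 was at 961 and 944 CPM, against 466 and 659.9 CPM in untreated OPT cells, a rise of 1.69-fold (adjusted p 0.0012). PSMC3, a base ATPase, was at 295 and 287 CPM, against 203 and 186 CPM (1.49-fold). Both genes' treated libraries lay above the untreated ones, and they were the only 2 of the 11 calls kept in every leave-one-out fit. The others were the alpha subunits PSMA4 and PSMA5, the beta subunits PSMB2 and PSMB3, PSMC6, the scaffold PSMD1, the lid subunit PSMD11, PSMG3 and PSME3, with log2 fold changes between 0.41 and 1.02. The count was 8 without replicate 2 of untreated OPT cells and 3 without replicate 1 of OPT cells with IFNL3. PSMG4, at 118 and 130.0 CPM, had 0.45 ± 0.15 (adjusted p 0.061) and was not called. With the offset 10 rose and 1, PSMB7, fell, against 7.17% and 6.13%.

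In WT cells the type III ligands gave calls in both directions. With H11, 11 members rose and 10 fell, against 18.2% and 20.6% of all genes, and with IFNL3 10 rose and 9 fell, against 18.7% and 21.1%, so neither share lay far from its background. Both comparisons use the same untreated WT libraries as IFNw does. PSMG4 was at 42.9 and 48.8 CPM with H11 and 41.5 and 49.7 CPM with IFNL3, against 81.5 and 93.3 CPM untreated. It was lower in all 4 treated libraries, 1.91-fold with H11 (adjusted p 0.00018) and 1.92-fold with IFNL3 (adjusted p 0.00017). PSMA2 was at 129 and 141 CPM with H11 and 129 and 118 CPM with IFNL3, against 249 and 236 CPM untreated (-0.85 ± 0.13 and -0.97 ± 0.13). With IFNw the same genes were at 222 and 274 CPM (PSMG4) and 631 and 571 CPM (PSMA2). They were the only 2 falls with each ligand kept both in every leave-one-out fit and with the length offset. The other falls included PSMA6, at 431 and 394 CPM with H11 and 375 and 406 CPM with IFNL3, which with H11 lost its call when any 1 of the 4 libraries was left out (between -0.44 and -0.31) and with the offset stood at -0.07.

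Among the genes that rose with type III ligands in WT cells, PSMD11, the lid subunit that contacts the core, was at 254 and 261 CPM with H11 and 227 and 232 CPM with IFNL3, against 131 and 138 CPM untreated (0.94 ± 0.11 and 0.77 ± 0.11). With IFNw it was at 146 and 160.1 CPM and was not called (0.19), but it was the 1 member that the length offset added to the rises with IFNw in WT cells (0.31). PSMD1 was at 119 and 120.5 CPM with H11 and 121 and 123 CPM with IFNL3, against 69.5 and 74.7 CPM untreated and 62.8 and 60.2 CPM with IFNw. PSME4 was at 74.4 and 71.7 CPM with H11 and 77.2 and 65.2 CPM with IFNL3, against 37.3 and 46.0 CPM untreated and 33.0 and 32.2 CPM with IFNw. For all 3 genes the type III libraries were the highest of the WT libraries, with no overlap, though the genes were picked by their calls on these libraries. PSMC5 (0.57 with H11 and 0.47 with IFNL3), PSMD12 (0.49 and 0.48) and PSMB2 (0.61 and 0.51) also rose, as did PSMA3, PSMC3, PSMC4 and PSME3, and PSMC1 with H11. Some leave-one-out fit ended the calls of PSMC1, PSMC4 and PSME3 with H11 and of PSMC3, PSMC4 and PSME3 with IFNL3. The length offset lost PSMC1 with H11 and PSME3 with both ligands. Kept under both checks were 7 of the 11 rises with H11 and 5 of the 10 with IFNL3. The PSMB2 call with IFNL3, but not with H11, was lost without replicate 1 of untreated WT cells or replicate 2 of IFNL3 (between 0.39 and 0.64 over these fits). PSMA3 lost its call with each ligand without replicate 1 of untreated WT cells (between 0.63 and 1.28 with H11), where its level of 4.56 CPM was the lowest of all libraries.

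In these WT libraries longer genes stood higher relative to their mean over all 16 libraries. Across genes, Spearman's rho between that deviation of log2 CPM and transcript length was 0.38 to 0.41 in the 4 WT libraries with H11 or IFNL3, 0.06 to 0.16 in the 4 untreated libraries and the 2 of OPT cells with IFNL3, and -0.44 to -0.42 in the 6 with IFNw in either genotype or H11 in OPT cells. The tested members are short, with a median transcript length of 1467 bases (GENCODE 29) against 2522.5 bases over all tested genes that had one. Across the 41 members, which share these libraries, rho between log2 fold change and length was -0.46 for IFNw in OPT, -0.50 for IFNw in WT and 0.47 for H11 in WT cells, and -0.14, -0.15 and 0.21 with the offset. With the offset, the median log2 fold change of the members was 0.14 for H11 and 0.10 for IFNL3 in WT cells, where it was -0.11 and -0.11 without it, so its sign turned. With it 11 members rose and 3 fell with H11 in WT cells, against 16.1% and 18.9% of all genes, and 11 rose and 3 fell with IFNL3, against 16.3% and 19.0%. The 3 that fell with H11 were PSMA2, PSMC2 and PSMG4. For IFNw the median stayed above 0, at 0.40 in OPT and 0.31 in WT cells. Whether the trend reflects RNA quality, library making or the cells was not tested.

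**Figure D3:**
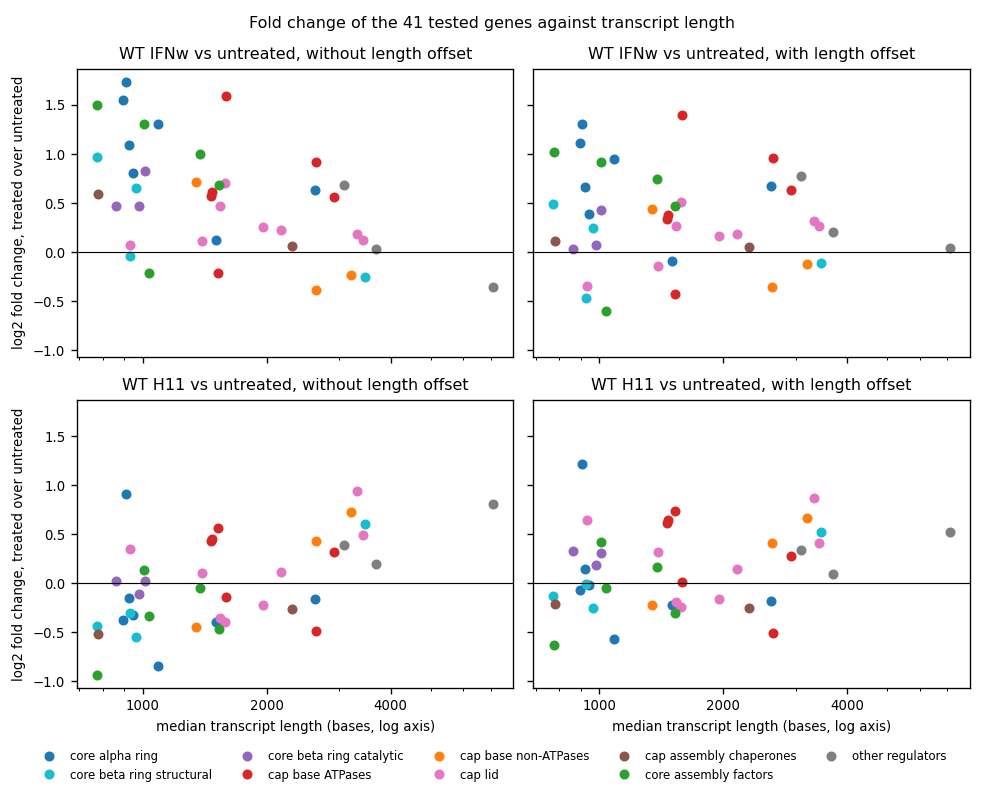
Log2 fold change of the 41 tested members against median transcript length (log axis), for IFNw (upper) and H11 (lower) in WT cells, without (left) and with (right) the length offset. Points are genes, coloured by role. Without the offset short genes sit higher with IFNw and lower with H11. With the offset the relation is weaker but not gone (Spearman's rho -0.15 against -0.5 with IFNw, and 0.21 against 0.47 with H11).

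The genotypes were compared within each treatment to ask what the receptor change does. Without ligand and with IFNw, 0 members were called (0.0% of all genes in both directions in each). The 95% interval of the OPT over WT ratio lay within 2-fold for 38 of 41 members in untreated cells, PSMA3, PSMB3 and POMP being outside, and for all 41 with IFNw. Within 1.5-fold lay 35 and 36. Unadjusted p-values under 0.05 were found for 3 members in untreated cells and 0 with IFNw, and DESeq2 called 0 of all genes in each. Leaving out replicate 1 of untreated OPT cells, which keeps the small library alone, gave 4 higher and 3 lower members in untreated cells. Leaving out replicate 2 gave 0.

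With H11, 23 members were higher and 7 lower in OPT than in WT cells, against 25.6% and 26.1% of all genes, and with IFNL3 16 were higher and 4 lower, against 18.1% and 15.1%. The lower calls were thus at or under the share of all genes. These comparisons share no library. All 16 members higher with IFNL3 were among the 23 higher with H11, and all 4 lower were among the 7. The same overlap over all genes was not counted, so it is not read as a trait of the members. PSMG4 differed most, at 225 and 262 CPM in OPT against 42.9 and 48.8 CPM in WT cells with H11 (5.31-fold, adjusted p 2.2e-09), and 118 and 130.0 CPM against 41.5 and 49.7 CPM with IFNL3 (2.71-fold, adjusted p 3.2e-06). PSMA6 was 4.05-fold higher with H11 and 2.44-fold with IFNL3, PSMA2 4.02-fold and 2.1-fold, and PSMC6 3.51-fold and 1.88-fold. All of these calls were kept with the length offset. It shrank the differences with H11, to 1.64 (PSMG4), 1.29 (PSMA6), 1.38 (PSMA2) and 1.48 (PSMC6) on the log2 scale.

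By role, with H11 all 7 alpha ring genes were higher in OPT cells, 2 of 3 catalytic subunits (PSMB5 and PSMB6), 3 of 6 base ATPases (PSMC2, PSMC3 and PSMC6), 3 of 8 lid genes (PSMD8, PSMD13 and PSMD14) and 5 of 7 tested assembly genes. In every leave-one-out fit 19 of the 23 higher calls were kept, PSMA1, PSMA3, PSMC3 and PSMG2 being lost. The length offset kept 16 and lost PSMA1, PSMA3, PSMB5, PSMB6, PSMC3, PSMD4 and PSMG2. The offset turned the sign of 3 of these: PSMB6 was 0.39 without it and -0.35 with it (adjusted p 0.01), PSMC3 0.28 and -0.13, and PSMG2 0.46 and -0.19, the last 2 not called with it. Lower in OPT cells were PSME4 (30.8 and 31.8 CPM in OPT against 74.4 and 71.7 CPM in WT cells), PSMD2 (51.3 and 45.6 against 90.8 and 108 CPM), PSMC5 (86.3 and 89.7 against 158 and 158 CPM), PSMD1, PSMD11, PSMB2 and PSMD12 (the last lost when any 1 of the 4 libraries was left out). In each of these the OPT and WT libraries with H11 did not overlap. The genes were picked by their calls on the same libraries, so this adds no support. The largest fall was that of PSME4, 2.33-fold, and the offset left it at -0.56 on the log2 scale (adjusted p 0.011). With the offset the counts with H11 were 16 higher and 11 lower, against 22.9% and 20.6% of all genes, and with IFNL3 10 higher and 3 lower, against 15.0% and 11.9%. The 3 catalytic subunits had a median of -0.35 where it was 0.39 without it.

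Whether the responses themselves differed was tested with the interaction of genotype and ligand (OPT response minus WT response). For IFNw 0 members were called (0.0% of all genes in both directions), with 37 of 41 intervals within 2-fold and 21 within 1.5-fold, 2 members at an unadjusted p under 0.05 and 0 genes called by DESeq2. Without replicate 1 of untreated OPT cells the IFNw counts were 3 higher and 1 lower. For H11 the response was higher in OPT cells for 19 members and lower for 6, against 19.5% and 17.4% of all genes, and for IFNL3 it was higher for 11 and lower for 3, against 11.1% and 7.31%. The differences in log2 response to H11 were 2.36 ± 0.22 for PSMG4, 1.95 ± 0.18 for PSMA2, 1.94 ± 0.19 for PSMA6 and 1.55 ± 0.19 for PSMC6. The members with a lower response to H11 in OPT cells were PSME4 (-1.44 ± 0.23), PSMD2, PSMC5, PSMD11, PSMD1 and PSMF1. Of the 19, 18 were kept in every leave-one-out fit, POMP being lost, and 13 with the offset. Of the 11 for IFNL3, PSMA2, PSMA6 and PSMG4 were kept in both. With the offset 13 were higher and 9 lower for H11, against 16.1% and 12.8%, and 5 higher and 4 lower for IFNL3, against 8.12% and 5.47%.

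**Figure D4:**
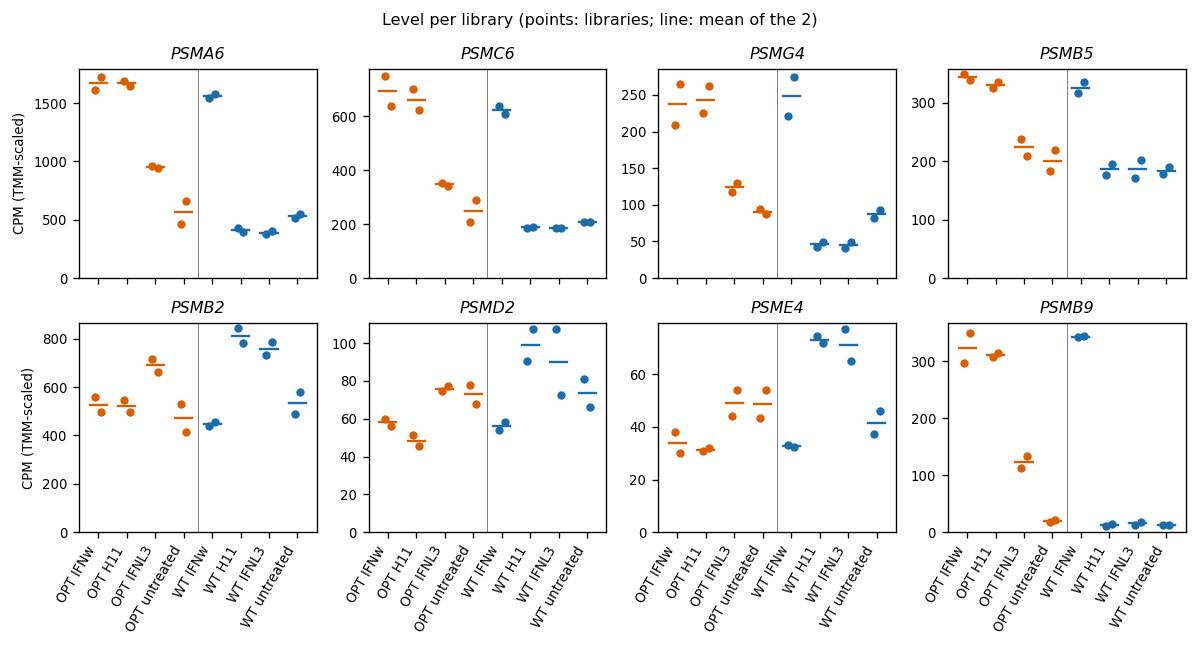
Level in CPM (axes from 0) per library for 7 members and the immunoproteasome gene PSMB9, in OPT (orange) and WT cells (blue). Points are libraries and lines the mean of the 2. PSMA6, PSMC6, PSMG4 and PSMB5 are high in the 6 libraries with IFNw or with H11 in OPT cells, while PSME4 and PSMB2 are highest in the 4 libraries with H11 or IFNL3 in WT cells.

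H11 and IFNL3 were also set against each other to ask what the higher affinity changes. In OPT cells 16 members were higher with H11 and 4 lower, against 10.7% and 6.86% of all genes. PSMA2 was at 543 and 542 CPM with H11, against 259.7 and 260.2 CPM with IFNL3 (1.06 ± 0.13, adjusted p 8.9e-05), and PSMG4, PSMC6 and PSMA6 differed by 0.97, 0.93 and 0.81. Those 4 and PSMC2 (0.67) were the calls kept in every leave-one-out fit and with the offset. The offset gave 6 higher and 2 lower, against 5.54% and 3.58% of all genes. The 4 lower members, PSMB2, PSMD1, PSMD2 and PSME4, lay between -0.65 and -0.40, and none was kept in every leave-one-out fit. In WT cells 0 members were called between the ligands (0.0% of all genes in both directions), 39 of 41 intervals lay within 2-fold with PSMD7 and POMP outside, 1 member had an unadjusted p under 0.05, and DESeq2 called 0 genes.

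Summed over the 42 members, the level was 14449.8 and 13697 CPM in OPT cells with IFNw, 14136 and 13592 CPM with H11 and 10646 and 10152 CPM with IFNL3, against 8333 and 8593 CPM in untreated OPT cells. In WT cells it was 13418 and 13291 CPM with IFNw, 8035 and 7858 CPM with H11 and 7733 and 7729 CPM with IFNL3, against 8201 and 8466 CPM untreated. With TMM scaling the order in OPT cells was IFNw and H11, whose libraries overlapped, then IFNL3, then untreated, and in WT cells IFNw stood above the rest. The TMM factors moved with the groups. They were 0.821 and 0.836 in WT cells with IFNw, 1.056 and 1.05 untreated and 1.258 and 1.273 with H11. In OPT cells they were 0.795 and 0.817 with IFNw and 1.053 and 1.072 untreated. The sums rest on this scaling, and sums without it were not taken. The sum weighs members by their reads and so follows the alpha ring, which gave 5055 and 4746 CPM in OPT cells with IFNw, against 2051 and 2402 CPM untreated. The 8 lid genes summed to 1486 and 1388 CPM in OPT cells with IFNw, against 1113 and 942 CPM untreated. In WT cells with H11 the lid sum was 1226 and 1232 CPM, against 1094 and 1166 CPM untreated.

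All 5 interferon-induced proteasome genes rose with IFNw in OPT and WT cells and under either type III ligand in OPT cells, and 0 of 5 were called with H11 or IFNL3 in WT cells without the offset. Their sum was 1847 and 1989 CPM in OPT cells with IFNw, 1905 and 1899.7 CPM with H11 and 1095 and 1127 CPM with IFNL3, against 383 and 466 CPM untreated. In WT cells it was 1919 and 2011 CPM with IFNw, 366 and 368 CPM with H11 and 359.8 and 375 CPM with IFNL3, against 386 and 394 CPM untreated. PSMB9, which takes the place of PSMB6, changed by 4.02 ± 0.19 in OPT and 4.75 ± 0.19 in WT cells with IFNw, and PSMB8, which takes that of PSMB5, by 3.03 ± 0.13 and 3.10 ± 0.13. PSME1 changed least of the 5, by 0.98 ± 0.14 and 1.20 ± 0.14, which is less than PSMA6, PSMC6 and PSMG4 did. PSMB5, PSMB6 and PSMB7, the subunits displaced in the immunoproteasome, were not called lower with IFNw, as given above. With the offset PSMB7 was called lower with H11 and with IFNL3 in OPT cells. Of the 5 induced genes, 2 rose with H11 and 3 with IFNL3 in WT cells with the offset.

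Other genes of the pathway were read from lists, whose counts stand against the shares of all genes with IFNw given above, 17.5% higher and 15.9% lower in OPT and 16.6% and 14.8% in WT cells. Of 9 COP9 signalosome genes, a complex built like the lid, 6 rose and 1 fell in OPT cells and 5 rose and 0 fell in WT cells with IFNw. COPS4 led, at 278 and 241 CPM in OPT cells with IFNw against 95.3 and 67.2 CPM untreated, and 282 and 225 CPM in WT cells with IFNw against 101 and 93.5 CPM. With the length offset 5 of the 9 rose and 1 fell in OPT cells, and 4 rose and 1 fell in WT cells. In WT cells 0 rose and 3 fell with H11, and 0 rose and 2 fell with IFNL3, COPS4 being lower with both (-0.51 and -0.65). The offset gave 1 higher and 1 lower with H11, and 0 higher and 2 lower with IFNL3. NFE2L1 was lower with each ligand in each genotype: it was at 57.5 and 63.7 CPM in OPT cells with IFNw against 108 and 102 CPM untreated, and 69.3 and 70.2 CPM in WT cells with IFNw against 117 and 120.4 CPM. Its log2 fold changes lay between -0.79 and -0.60 over the 6 ligand comparisons. NFE2L2, its relative in the oxidative stress response, fell with IFNw (-1.16 ± 0.16 in OPT and -1.12 ± 0.16 in WT cells) and with H11 in OPT cells (-1.25 ± 0.16), and was not called with H11 or IFNL3 in WT cells. Over the 11 tested genes of that list, 2 rose and 2 fell with IFNw in each genotype, the risers being NQO1, a detoxifying reductase (0.93 in OPT and 0.98 in WT cells), and KEAP1, which holds NFE2L2 down (0.42 and 0.58). The offset left these 4 calls and put NQO1 at 0.53 and 0.59. In WT cells 4 of the 11 rose with H11 and 3 with IFNL3, HMOX1 the most (0.96 and 1.09), against 18.2% and 18.7% of all genes. With the offset 4 and 2 rose, against 16.1% and 16.3%. DDI2, the protease known to activate NFE2L1, was called higher in WT cells with both type III ligands on a handful of reads (19 with H11 and 19 with IFNL3, against 1 untreated, over 2 libraries each), and was not called with the offset. Of 18 tested genes of other proteasome-associated proteins, 2 rose and 4 fell in OPT and 2 rose and 6 fell in WT cells with IFNw, where TXNL1, a redox protein bound to the cap, and ZFAND2A rose in both (1.03 and 1.08 in OPT, 0.50 and 0.83 in WT cells) and KIAA0368, which tethers the cap to the core, fell in both (-0.78 and -0.67). With the length offset TXNL1 kept its calls, ZFAND2A was called in neither (0.65 and 0.40), and KIAA0368 was called in OPT cells (-0.40) and not in WT cells (-0.26). Of 14 genes of VCP, the segregase that feeds the proteasome, and its cofactors, 3 rose and 3 fell in OPT and 2 rose and 2 fell in WT cells with IFNw, shares near those of all genes, and with the offset 1 rose and 1 fell in each. In WT cells 3 of the 14 rose and 1 fell with H11, against 18.2% and 20.6% of all genes. With IFNL3 4 rose and 1 fell, against 18.7% and 21.1%. VCP itself was among those that rose with H11 (0.88) and IFNL3 (0.77), and the 1 that fell was the cofactor UBXN1 (-0.81 and -0.76). Of 6 tested ubiquitin genes and activating or conjugating enzymes, 0 rose with IFNw in each genotype. The 1 that fell was the activating enzyme UBA1 (-0.29 in OPT and -0.32 in WT cells), a call lost with the offset in both (-0.14 and -0.17).

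The members also differ in how closely they follow one another over the 8 group means. Each was set against the mean of the 12 core members called in any of the 6 ligand comparisons, which leaves out PSMA1 and PSMB1. A core member's own values were left out of the mean it was set against. Picking the 12 by their calls builds in part of their likeness. Pearson's r of log2 CPM was 1.00 for PSMC6, 0.98 for PSMG3, 0.97 for PSMG4 and PSMD13 and 0.96 for PSMG1 and PSMC2. It was -0.90 for PSMD2, -0.89 for PSMC5, -0.88 for PSME4 and -0.68 for PSMD1, and of the core genes PSMB2 (-0.62) and PSMB1 (0.31) followed the core mean least. Among 6314 genes above 20 CPM that are no members, the most alike were C11orf83 (0.9992), TCEB1 (0.9984), C1orf53 (0.9984), ATP6V0B (0.9982) and MRPL15 (0.998). These points share libraries and the length trend, and 5 members, PSMA1, PSMB1, PSMD6, PSMD7 and PSMD9, were called in none of the 6 ligand comparisons. Pseudogenes named after a member exist in GENCODE 29 for 11 members, 13 of them for PSMC1 and 4 for PSMA6. How reads were shared between such copies is not stated, which leaves the levels of those members uncertain.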

How the data were processed

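The deposited files hold counts, whole numbers of reads per gene target with 1 library each, made by the authors from Ion Torrent libraries (540 or 550 kit, per the labels' protocols) and the hg19 build, per the submitters' processing notes. Aligner, counter, strand use and amplicon positions are not stated; levels are therefore not compared between genes. Totals of 5331203 to 9822088 reads set the precision, and limits for a count of 0 use 3 counts. Of 20812 rows per file, 10 spike-ins (1 read at most) were left out.

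Groups follow the labelled genotype and treatment. All 16 libraries were fitted in 1 edgeR 4.0.16 quasi-likelihood model with limma 3.58.1 (R 4.3.3; filterByExpr with a minimum count of 10, 12704 genes kept, TMM factors, common dispersion 0.0176), and 15 comparisons were tested at a Benjamini-Hochberg adjusted p of 0.05. The script was tested on simulated data. Standard errors are edgeR log2 fold changes divided by the square root of F. Alternatives were DESeq2 1.42.0 (test and size factors), no filter, a replicate block, the compared groups alone, each library left out in turn, and a length offset: a natural spline with 5 degrees of freedom of log counts on log median transcript length (GENCODE 29 basic transcripts, 92.8% of genes and all 42 members), taken out per library. Promoter letters came from RefSeq (GRCh38.p14), and tables were handled in Python 3.11.15 with pandas 2.3.3 and scipy 1.17.1.

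Members and lists were chosen with earlier results of these data known. Any member could be named. Where libraries of called genes are said not to overlap, the share of such genes among all genes was not counted. Per comparison the 5 largest called changes in each direction were tracked, and up to 3 called genes per other list. Of the blood markers, HBA1 had no matching target. PSMG4's exact motif was searched after it was seen.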

Additional observations from a re-analysis of the deposited data

Results flagged for a closer look

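The response to H11 differed between genotypes by the test of genotype and ligand together for 25 members: the response in OPT cells minus that in WT cells was above 0 for 19 of 41 members and below 0 for 6. These counts stand against 19.5% and 17.4% of all genes, so the calls below 0 did not exceed the share of all genes. Among those above 0, PSMG4, a chaperone of alpha ring assembly, stood at 2.36 on the log2 scale, the beta subunit PSMB3 at 2.06, the alpha subunits PSMA2 and PSMA6 at 1.95 and 1.94, and the base ATPase PSMC6 at 1.55. Below 0 were the activator PSME4 at -1.44, the base scaffold PSMD2 at -1.02, the ATPase PSMC5 at -0.98, the lid subunit PSMD11 at -0.71 and the scaffold PSMD1 at -0.67. All 10 kept their call with the length offset and in every leave-one-out fit.

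The response to IFNL3 differed for 14 members, above 0 for 11 and below 0 for 3, against 11.1% and 7.31% of all genes. The calls below 0 were thus near the share of all genes. PSMB3 stood at 1.5, PSMG4 at 1.39, PSMA6 at 1.21, PSMA2 at 1.02 and PSMA4 at 0.83, and PSME4 at -0.76, PSMC5 at -0.61 and the core inhibitor PSMF1 at -0.51. With the length offset PSMB3 (adjusted p 0.061), PSMA4 (0.19), PSME4 (0.23) and PSMF1 (0.13) were not called (edgeR's quasi-likelihood test, Benjamini-Hochberg adjustment). Leaving out some single library ended the calls of PSMA4, PSME4, PSMC5 and PSMF1, that of PSMC5 without WT IFNL3 replicate 1 alone. Both tests share the untreated libraries, and PSMB3 rests in part on the untreated OPT replicate 2, where it was at 149.9 CPM against 407 CPM in its replicate.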

How the results depend on the processing

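Counts of called members stayed within 1.5 times of the reported one under DESeq2's test and its size factors. The length offset moved the lower calls to 3 for IFNw (0 without it), 3 for H11 (10) and 3 for IFNL3 (9) in WT cells and to 1 for IFNL3 in OPT cells (0), and between OPT and WT cells it gave 11 lower with H11 (7) and 10 higher with IFNL3 (16). It gave 5 higher for the difference in IFNL3 response (11), and 6 higher (16) and 2 lower (4) for H11 against IFNL3 in OPT cells. Whether the offset also removes changes of the cells that follow length was not tested. Without the low-count filter 1 member fell with IFNw in OPT cells (2) and 1 was lower in untreated OPT than WT cells (0). The compared groups alone, with few residual degrees of freedom, gave 0 lower for IFNw (2) and H11 (4) and 0 higher for IFNL3 (11) in OPT cells, and 0 lower for the IFNL3 response difference (3). The replicate numbers share a correlation of 0.085 to 0.212 over 28 pairs of groups, 27 of them over 0.1, which does not establish pairing, and a replicate block gave 14 higher (11) and 3 lower (0) for IFNL3 in OPT cells. For the 16 moves other than by leaving out a library the cause was not tested, beyond what the fits' construction shows.

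Leaving out 1 library at a time gave 5 to 7 lower for H11 (10) and 5 to 9 higher for IFNL3 (10) in WT cells. In OPT cells it gave 0 to 3 lower for IFNw (2), 0 to 4 lower for H11 (4), and 3 to 13 higher (11) and 0 to 2 lower (0) for IFNL3. Between OPT and WT it gave 0 to 4 higher and 0 to 3 lower in untreated cells (0 and 0), nonzero without untreated OPT replicate 1 alone, and 1 to 4 lower with IFNL3 (4). The difference in response gave 0 to 3 higher and 0 to 1 lower for IFNw (0 and 0), nonzero in that same fit alone, and 6 to 14 higher (11) and 0 to 4 lower (3) for IFNL3. H11 against IFNL3 in OPT cells gave 7 to 13 higher (16) and 0 to 1 lower (4). A group left with 1 library is assumed to vary like the others. Of 92 values of tracked genes, none changed sign under any alternative, and 37 results under other settings and 74 with a library left out lost their call. PSMB6, PSMC3 and PSMG2, not among those values, changed sign with the length offset between OPT and WT cells with H11. Members with few reads, PSMA3 and POMP, are limited by depth.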
